A study of Homo sapiens with 14 samples.

Results

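One array with little TERT message was set against a pair of arrays with much of it. TERT encodes the catalytic subunit of telomerase, which most human fibroblasts keep silent and which hTERT immortalization supplies from an introduced gene. The comparison took 3 of the 14 arrays of the series. They were picked by title. The TERT-low array carries the label primary replicate 1 and had a TERT value of 7.07 log2, and the TERT-high pair carries the labels primary replicate 2 and A39 replicate 1, with 11.70 and 11.62. The choice rested on the measured TERT level and on the overall likeness of the pair. The TERT level and the closeness of the pair are therefore descriptions here, and nothing was tested.

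The cells were WI-38, a diploid fibroblast strain from human lung. Per the labels, the primary cells were at passage 19, and the hTERT-immortalized cells were at passages 39, 50, 58, 67 and 95 with the letter A and at passage 96 with the letter B. Each label was measured on 2 arrays, all cultures were grown in the same serum-containing medium with weekly passages, and the sources used here give neither the vector that carried hTERT nor whether the cells were cloned. Whether the TERT row of the array reads the introduced copy, the cell's own copy or both is not given either. The nearest TERT value above the TERT-low array was 10.67 and the highest was 12.18, so 1 of the 2 arrays labelled primary lay among those labelled hTERT. The label of that array, primary replicate 2, goes against its TERT level, and each difference below rests on it and on A39 replicate 1 together. The other arrays did not pair by label either. Over all rows, the array closest to each array by Pearson correlation carried another label for 14 of 14 arrays. A39 replicate 2 and A50 replicate 1 correlated at 0.992, and A50 replicate 2 and A58 replicate 1 at 0.991, while the 2 arrays labelled A39 correlated at 0.980 and those labelled A50 at 0.977. The array closest to the TERT-low array was A58 replicate 2 (0.980), against 0.978 for primary replicate 2. Array names below are therefore the labels as given.

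Values are log2 levels as deposited, and 1 log2 is a factor of 2. Array medians were 7.37 in the TERT-low array and 7.30 and 7.35 in the pair, and 12 to 17 of the 28869 rows of each were listed at 0. With a single array on one side, its own error enters every difference, and no spread can be given for it. The difference inside the TERT-high pair serves as the noise scale. The pair was picked for its likeness, so this scale may be too small. Fibroblast markers were abundant in the TERT-low array (median level 11.16 over 12 genes) and in both arrays of the pair (11.76 and 11.76). Differences were positive for 10 of these 12 genes and negative for 2, with a median of 0.41. In both arrays of the pair 3 (25%) were at least 1 log2 higher and 0 lower, against 1.46% and 0.512% of all genes. COL1A1, at 13.36, 13.31 and 13.28, had the lowest difference of the list. The 6 lists of markers of other cell types had median differences between -0.21 and 0.07, close to the -0.025 of all genes. None of their members was listed at 0 in these 3 arrays. Levels summed over a list differed more. Endothelial markers summed to 10.41 in the TERT-low array and 11.01 and 11.08 in the pair, and epithelial markers to 11.88 against 12.34 and 12.30. Neuron and glia markers went the other way, at 10.41 against 10.24 and 10.33. In bulk RNA, fewer cells of a type and less RNA per cell cannot be told apart.

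A few processes frame the results. Interferons bind receptors that activate a transcription factor complex with IRF9, and this complex binds a DNA element with repeated GAAA letters in front of antiviral genes. Imprinted genes such as NDN, which encodes the growth suppressor necdin, are expressed from the chromosome of one parent under the control of DNA methylation. Amino acid shortage and misfolded protein both induce ATF4, a transcription factor that turns on genes of amino acid synthesis and import.

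Because interferon response effectors had the most members past the size used below, stretches in front of 4 of them and of TAP1, an antigen presentation gene, are shown, from RefSeq on GRCh38.p14, on the strand of the gene and from 5′ to 3′. Capitals mark matches to GAAANNGAAA on either strand, the core of the interferon-stimulated response element. The IFI6 stretch lies at chr1:27672268-27672357 on the minus strand, 165 to 76 bases before the start, and holds 3 matches. The IFIT1 stretch lies at chr10:89392498-89392537 on the plus strand, 125 to 86 bases before the start, and holds 2. The IFI44L stretch at chr1:78620363-78620402, plus strand, 85 to 46 bases before the start, holds 1, and the IFITM1 stretch at chr11:313985-314014, plus strand, 55 to 26 bases before the start, holds 1. The TAP1 stretch at chr6:32853810-32853849, minus strand, 145 to 106 bases before the start, holds 2 that overlap.
IFI6: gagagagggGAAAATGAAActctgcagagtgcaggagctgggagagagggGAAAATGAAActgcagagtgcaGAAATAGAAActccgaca
IFIT1: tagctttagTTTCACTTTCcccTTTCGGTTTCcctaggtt
IFI44L: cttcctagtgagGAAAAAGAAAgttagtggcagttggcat
IFITM1: atttacaaacagcagGAAATAGAAActtaa
TAP1: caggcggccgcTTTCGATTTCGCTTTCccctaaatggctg

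Of 33 interferon response effectors with a promoter entry, 25 held the motif within 250 bases before to 50 bases after a listed start, or 75.8%. The share over all 27305 genes with an entry was 4.38%, and it was 3.57% over all 35116 windows. The motif did not separate effectors that differed between the arrays from those that did not. It was in 16 of 21 effectors past the size used below and in 9 of the 12 that were not. A match is a run of letters and not a measured binding site.

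TERT, IFI6 and NDN mark the comparison. IFI6, an interferon-induced protein of mitochondria and endoplasmic reticulum, read 8.22 in the TERT-low array and 11.97 and 11.94 in the pair, a difference of 3.74 with 0.030 inside the pair. In the 11 other arrays it lay between 8.79 and 11.63, with a median of 9.61, so the TERT-low array was the lowest of the series and the pair the highest. NDN read 10.20 in the TERT-low array and 5.84 and 5.82 in the pair, a difference of -4.37 with 0.020 inside the pair. In the 11 other arrays NDN lay between 4.81 and 8.74, with the 2 highest values, 8.74 and 8.73, in A95 replicate 2 and B96 replicate 1. The TERT-low array was thus the highest of the series for NDN. TERT itself was 4.59 higher in the pair, with 0.080 between the 2 arrays.

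**Figure D1:**
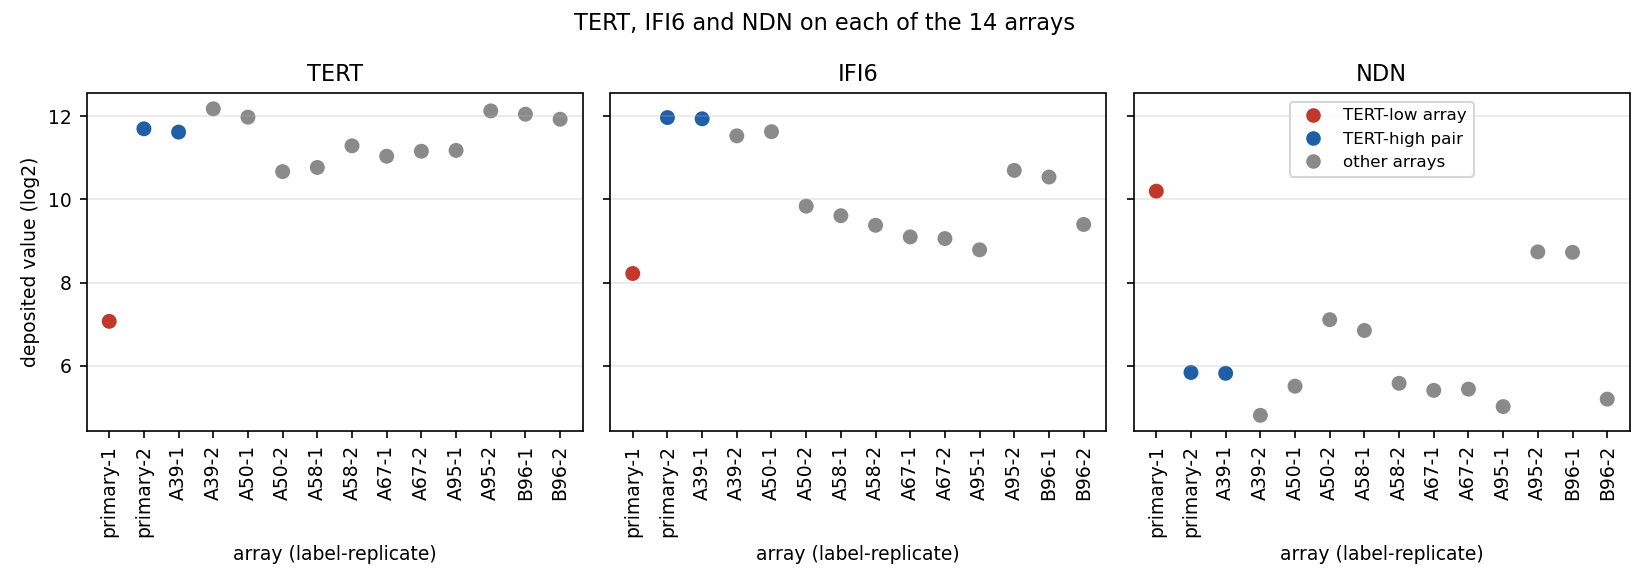
Deposited log2 values of TERT, IFI6 and NDN on each of the 14 arrays, named by label and replicate. The TERT-low array had the lowest TERT (7.07) and IFI6 (8.22) and the highest NDN (10.20), while the arrays of the TERT-high pair lay within 0.080 of each other for all 3 genes.

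Over the table as a whole, the sides differed more than the arrays of the pair did. The pair was picked for its likeness, so this order is largely set by that choice. At least 1 log2 separated the TERT-low array from primary replicate 2 in 850 rows and from A39 replicate 1 in 835 rows, against 156 rows inside the pair. The median absolute difference was 0.22 and 0.21 log2 against 0.10 inside the pair. A row was counted as higher or lower where both arrays of the pair differed from the TERT-low array by at least 1 log2 the same way. By that rule 418 of 28869 rows (1.45%) were higher and 158 (0.547%) were lower in the pair. At 2 log2 the counts were 66 and 12, and at 4 log2 they were 5 and 1. Rows with no gene symbol made up 113 of the 418 (27.0%) and 57 of the 158 (36.1%), against 27.0% of all rows. In 6 of the 113 the TERT-low value was exactly 0.

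With 1 row per gene, 268 of 18377 genes (1.46%) were higher and 94 (0.512%) were lower. Genes that were higher had a median level of 7.47 in the TERT-low array and 9.25 in the pair, and those that were lower had 8.65 and 6.84. Among all genes, 11 differed by at least 1 log2 inside the pair, and the 2 immediate early genes FOS and FOSB were among them. FOS read 8.59 in the TERT-low array, 10.13 in primary replicate 2 and 8.61 in A39 replicate 1, so it separated the members of the pair and not the sides.

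**Figure D2:**
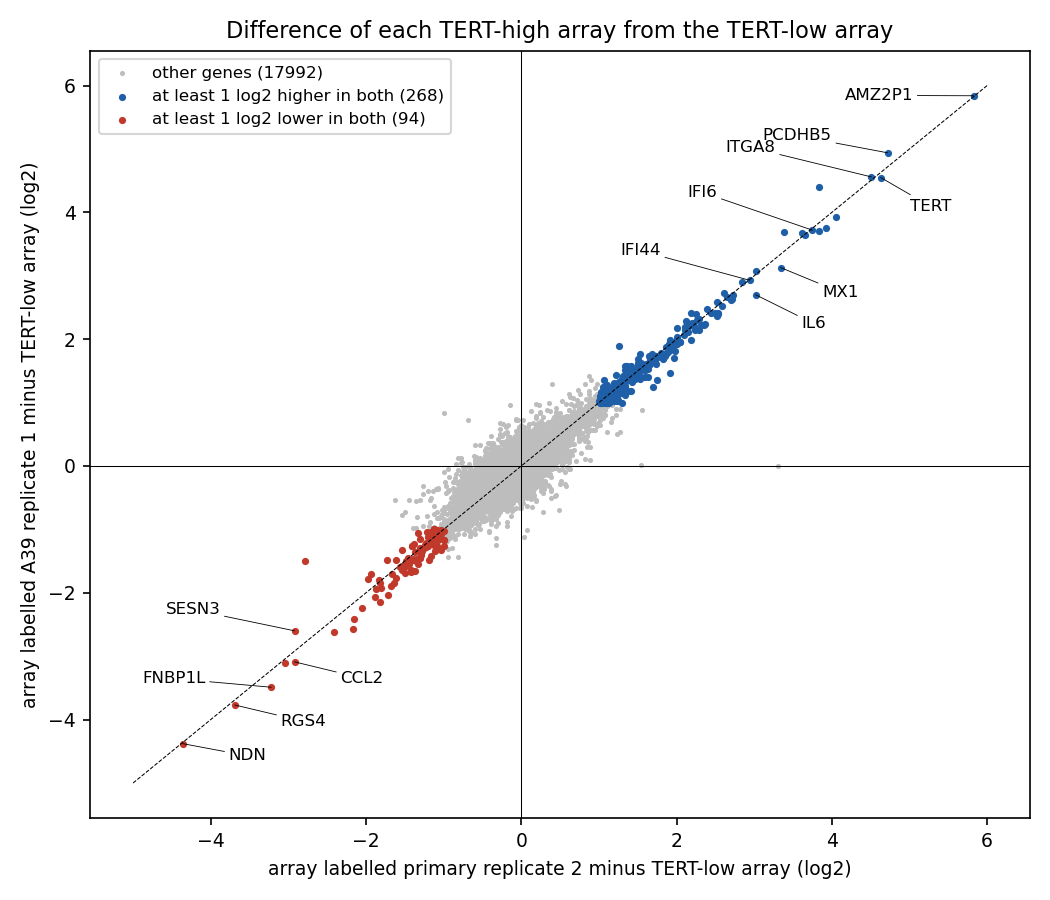
Log2 difference of the array labelled primary replicate 2 (horizontal) and of the array labelled A39 replicate 1 (vertical) from the TERT-low array, 1 point per gene. The 268 genes at least 1 log2 higher and the 94 genes at least 1 log2 lower in both lie along the dashed line of equal differences, and since both axes subtract the same array, its error moves a point along that line.

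The gene with the largest difference was AMZ2P1, a pseudogene of the metalloprotease gene AMZ2. It read 6.43 in the TERT-low array and 12.26 and 12.27 in the pair. Its parent gene AMZ2 read 10.16 against 10.64 and 10.62, and rows of a pseudogene and its parent can share probes. Over the 11 other arrays AMZ2P1 took either a high or a low level, with 12.13, 12.22 and 11.96 in A39 replicate 2, A50 replicate 1 and B96 replicate 2 and 5.79 to 6.79 in the other 8. PCDHB5, an adhesion protein of the clustered protocadherins, read 5.86 against 10.58 and 10.80. It was the 1 of 16 measured protocadherin beta genes past 1 log2 in both arrays, against 1.46% of all genes higher and 0.512% lower. The other 15 differed by -0.39 to 1.00.

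ITGA8, an integrin subunit that binds matrix proteins, read 5.63 in the TERT-low array and 10.14 and 10.19 in the pair. It was 8.25 or higher in 5 of the 11 other arrays (A39 replicate 2, A50 replicate 1, A95 replicate 2, B96 replicate 1 and B96 replicate 2) and at most 5.48 in the other 6, below the TERT-low array. Among 10 integrin alpha genes it was the 1 that was higher. ITGA6, a laminin receptor subunit, was the 1 that was lower, at 11.58 against 10.28 and 10.28. The shares over all genes were 1.46% and 0.512%. MASP1, a protease of the lectin pathway of complement, read 6.19 against 9.80 and 9.86, and 8.38 to 12.04 in the other arrays.

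In this comparison related genes moved together in 2 families, named after their values were seen. ADH1C and ADH1B, alcohol dehydrogenases of class I, differed by 4.12 and 3.54, with 4.0 and 4.63 in the TERT-low array. The third class I gene, ADH1A, read 6.13 against 7.39 and 8.02, while ADH4, ADH5, ADH6 and ADH7 differed by -0.44 to 0.33. Class I genes are near-identical, so signal can be shared between their rows. HBD, the delta globin gene, read 6.46 against 10.51 and 10.39, HBB, the beta globin gene, 5.70 against 7.70 and 7.87, and HBE1, the embryonic globin gene of the same cluster, 6.69 against 7.65 and 7.64. HBB is also a blood cell marker. The other 3 measured globins, HBM, HBQ1 and HBZ, differed by -0.30 to 0.15. HBB was the 1 of 8 blood cell markers past 1 log2, against 1.46% of all genes higher and 0.512% lower. The list's median difference was -0.098, and summed blood marker levels were 9.33 in the TERT-low array and 9.48 and 9.67 in the pair. The part of other cells in the globin values was not tested.

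Of the 34 gene lists, that of interferon response effectors had the most members past 1 log2. Of 39 measured effectors, 25 were at least 1 log2 higher in both arrays of the pair (64.1%, against 1.46% of all genes), 0 were lower, and 38 of 39 differences were positive. The median difference was 1.48, against -0.025 over all genes, with 1.54 for primary replicate 2 alone and 1.42 for A39 replicate 1 alone. The list was chosen with these differences partly known, so the counts describe it and do not test it. Inside the pair no effector differed by more than 0.22.

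The largest differences were in antiviral genes of several kinds. IFITM1, which blocks fusion of virus with the cell membrane, read 6.70 in the TERT-low array and 10.62 and 10.45 in the pair. IFI44L, an interferon-induced gene, read 5.19 against 9.02 and 8.90. IFIT1, which binds viral RNA by its cap, read 7.17 against 10.82 and 10.81. For each of these 3 genes both arrays of the pair lay over 3 log2 above the TERT-low array. MX1, a GTPase that traps viral nucleocapsids, read 6.40 against 9.74 and 9.53, and its relative MX2 5.97 against 7.17 and 7.05. HERC6 read 5.59 against 8.62 and 8.66, and IFI44 6.32 against 9.26 and 9.25. PARP9 and DTX3L, partners in a ubiquitin ligase complex, were higher by 2.48 and 1.87. OAS1, OAS2 and OAS3, which make the messenger that activates RNase L, were higher by 1.72, 1.48 and 1.42.

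Of the 39 effectors, 14 did not reach the size. ISG15, the ubiquitin-like modifier, read 7.52 against 7.85 and 7.82, RSAD2 (viperin) 6.22 against 6.52 and 6.35, OASL 6.67 against 6.99 and 6.77, and CMPK2 7.66 against 7.61 and 7.59. These genes are textbook interferon targets, and here they differed by 0.32, 0.22, 0.21 and -0.060. IFI27 read 7.09 against 7.59 and 7.42. Members of the list thus ranged from -0.060 for CMPK2 to 3.84 for IFITM1.

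Ligands and receptors were examined next. None of the 13 measured genes passed 1 log2, and their median difference was 0.020. In a list of this size such a count is near the share over all genes (1.46% higher and 0.512% lower). IFNB1, the interferon of fibroblasts, read 5.65 in the TERT-low array and 5.42 and 5.71 in the pair. The receptor subunits IFNAR1 and IFNAR2 read 10.09 against 9.99 and 9.98, and 7.93 against 8.41 and 8.35. IL10RB, shared by the lambda interferon and interleukin 10 receptors, had the largest difference of the list at 0.84.

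Among sensors and signalling proteins 4 of 20 were higher and 0 were lower, against 1.46% and 0.512% of all genes. IRF9, a DNA-binding part of that complex, read 8.63 against 10.61 and 10.44, and IRF1, a transcription factor induced by interferon gamma, 7.52 against 9.41 and 9.32. The RNA sensors IFIH1 (MDA5) and RIGI (RIG-I) read 6.33 against 7.59 and 7.60, and 8.32 against 9.53 and 9.36. The kinases JAK1 and TBK1 and the factor IRF3 differed by 0.055, -0.085 and -0.095. Of 6 feedback inhibitors USP18, which removes ISG15 and blocks the receptor, was the 1 past 1 log2, at 7.48 against 9.52 and 9.44.

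Of 10 measured genes that load peptides on MHC class I, 5 were higher (against 1.46% of all genes), with a median difference of 0.99. PSMB9 and PSMB8, subunits of the immunoproteasome, read 7.14 against 9.87 and 9.84, and 8.20 against 9.86 and 9.87. The peptide transporter genes TAP1 and TAP2 read 8.28 against 10.00 and 9.98, and 8.34 against 9.80 and 9.78. ERAP1, which trims peptides, was higher by 1.38, and B2M, the light chain of MHC class I, by 0.61. PSMB10, the remaining immunoproteasome subunit, read 10.09 against 9.69 and 9.79. Each of PSMB8, PSMB9 and TAP1 stands on 3 rows with the same values in these arrays, which are not independent measurements.

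**Figure D3:**
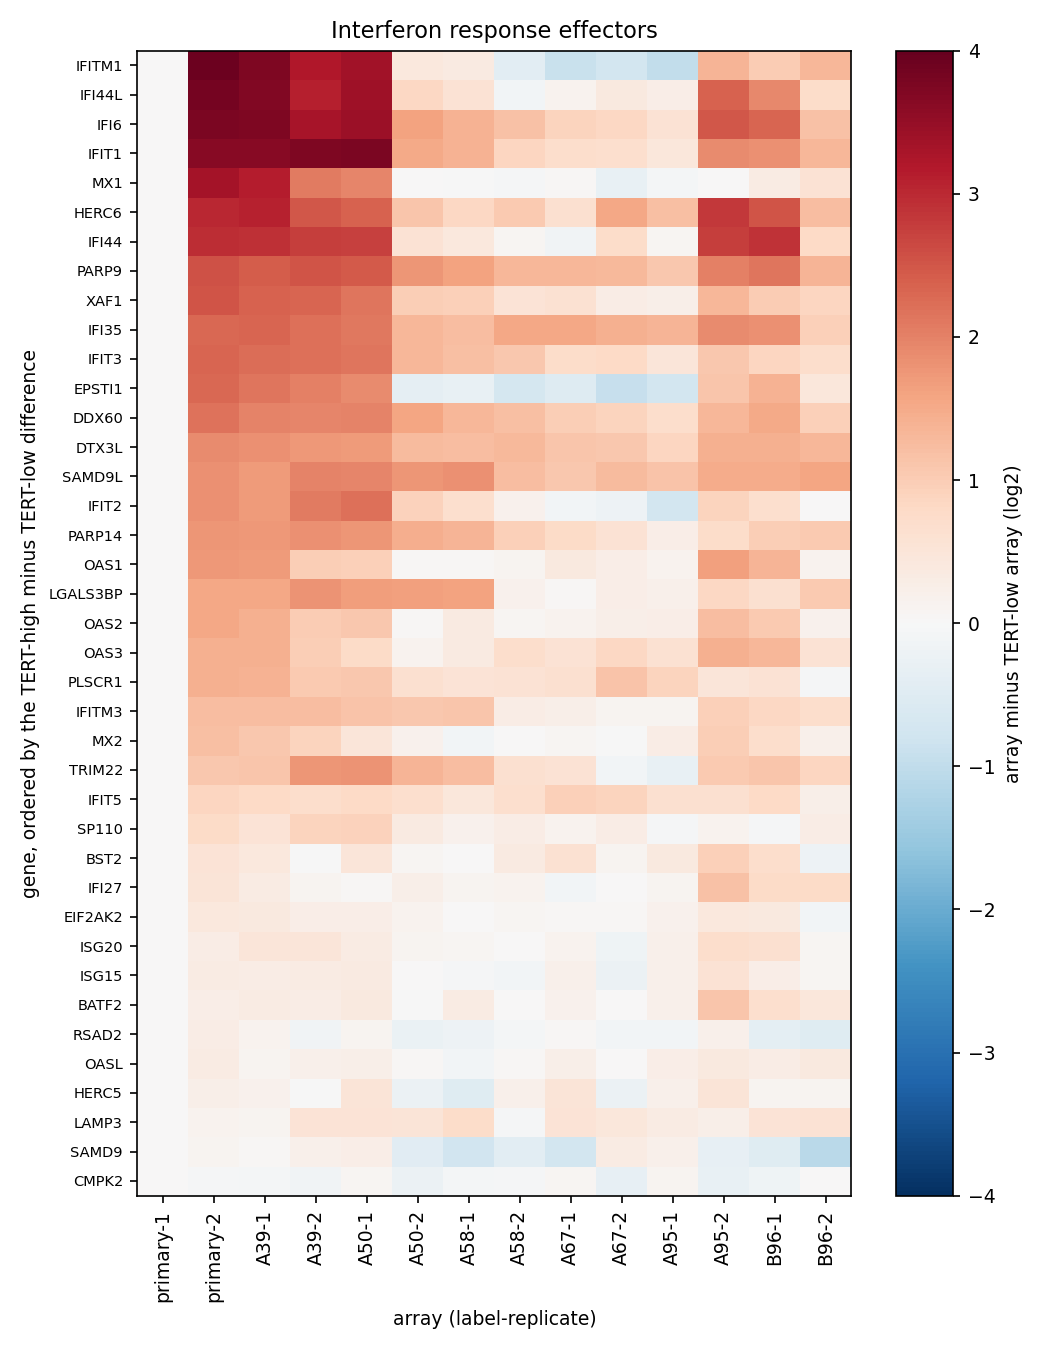
Log2 difference of each of the 14 arrays from the TERT-low array for the 39 interferon response effectors, ordered by the TERT-high minus TERT-low difference. The pair and then A39 replicate 2 and A50 replicate 1 show the largest differences (list medians 1.54, 1.42, 1.23 and 1.14), and A58 replicate 2 to A95 replicate 1 the smallest (0.18 to 0.27).

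The other arrays took different sides for these genes. The effector list lay above the TERT-low array in all 13 others, by a median of 1.23 in A39 replicate 2, 1.14 in A50 replicate 1, 0.50 in A50 replicate 2 and 0.18 in A58 replicate 2. It stood at 1.06 in A95 replicate 2, 0.82 in B96 replicate 1 and 0.58 in B96 replicate 2. Of the 25 effectors past 1 log2, 25 were nearer the pair's level than the TERT-low level in A39 replicate 2, 11 in A50 replicate 2 and 3 in A95 replicate 1. The 5 MHC class I genes differed from this, with all 5 nearer the pair in each array from A39 replicate 2 to A67 replicate 1.

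Over the 14 arrays, the 5 genes most like IFI6 by Pearson correlation were IFIT1 (r = 0.979), XAF1 (0.979), IRF9 (0.976), IFI44L (0.973) and TRIM69 (0.968). Those most like TERT were CD163L1 (0.961), NHERF2 (0.950), PLAT (0.945), MYO1C (0.929) and ZC3HAV1 (0.927). The TERT-low array lay far from the other 13 for TERT, and it weighs heavily in these values. Those most like NDN were RHOJ (0.902), TNIK (0.879), GALNT12 (0.878), HARS2 (0.874) and ADA2 (0.860). Arrays that lie close to each other share most of their values, so the 14 points are not independent.

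Stress genes, of the responses to misfolded protein and to amino acid shortage, came next. All 24 measured had positive differences, 8 of them by at least 1 log2 in both arrays (against 1.46% of all genes), and the median difference was 0.79. DDIT4, an inhibitor of mTORC1 signalling, read 6.03 in the TERT-low array and 8.42 and 8.51 in the pair. The transcription factors ATF3 and DDIT3 (CHOP) read 6.85 against 8.60 and 8.21, and 7.78 against 9.37 and 9.29. ASNS, the asparagine synthetase, read 9.55 against 10.90 and 11.01, and PSAT1, an enzyme of serine synthesis, 10.14 against 11.18 and 11.25. SLC7A11, the cystine importer, was higher by 0.97 and ATF4 itself by 0.51. HSPA5, the main chaperone of the endoplasmic reticulum, read 12.38 against 12.55 and 12.52, the smaller end of the list. The list's median difference from the TERT-low array was 0.64 in A39 replicate 2 and -0.14 in A58 replicate 2.

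Secreted factors went both ways. IL6, a cytokine of inflammation and senescence, read 7.59 in the TERT-low array and 10.61 and 10.29 in the pair, and 6.19 to 11.08 in the other arrays. CCL2, the chemokine that draws monocytes, read 8.99 against 6.07 and 5.90, and no other array exceeded 6.65. HGF, the hepatocyte growth factor, read 9.68 against 11.78 and 11.75, and TNFRSF11B (osteoprotegerin), a decoy receptor, 9.90 against 11.91 and 11.88. In all, 6 of 23 measured genes of the secreted list were higher and 1 was lower, against 1.46% and 0.512% of all genes, with a median difference of 0.23. CXCL8 was higher by 0.92, and CXCL1, IL11 and IL1B differed by -0.030, -0.10 and 0.23.

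After NDN, the gene with the largest negative difference was RGS4. This regulator, which shortens G protein signalling, read 11.65 in the TERT-low array and 7.96 and 7.88 in the pair, and its relative RGS5, known from pericytes, 8.62 against 6.75 and 6.68. RGS2, of the same family, went the other way, at 7.28 against 9.29 and 9.21. Over 21 measured RGS genes 2 were lower and 1 was higher, against 0.512% and 1.46% of all genes, and the median difference was 0.010. FNBP1L, an adaptor of actin assembly at membranes, read 8.34 against 5.12 and 4.85, and RHOJ, a small GTPase, 9.24 against 6.20 and 6.14. RHOJ and NDN had their 2 highest other values in the same arrays, with RHOJ at 8.96 in A95 replicate 2 and 8.85 in B96 replicate 1.

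Imprinted genes were counted by parent of origin. Of 15 measured genes expressed from the paternal copy NDN was the 1 past 1 log2, and of 15 expressed from the maternal copy 0 were. Of all genes 0.512% were lower and 1.46% higher. The neighbours of NDN in the same imprinted region differed far less. MAGEL2 read 6.35 against 5.64 and 5.89, and MKRN3 7.0 against 6.95 and 6.71. MEST, PEG10 and PLAGL1 differed by -0.37, 0.035 and 0.095. SNRPN, PEG3, H19 and IGF2 had no row with 1 symbol and were not analysed here.

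Matrix and signalling genes gave smaller counts, to be read beside the 1.46% higher and 0.512% lower among all genes. VCAN, the proteoglycan versican, read 11.32 against 9.66 and 9.61, and FBLN1, a fibulin of elastic matrix, 10.05 against 11.30 and 11.34. Among 23 collagens COL3A1 and COL15A1 were higher, at 10.91 against 12.24 and 12.25 and at 7.13 against 8.82 and 8.88, with a list median of 0.14. In the TGF-beta list 3 of 21 were higher and 2 lower. TGFB2, a ligand, was higher by 1.53, TGFBR3, a coreceptor, by 1.66 and BMP4, a ligand of the related branch, by 1.46. NOX4, an oxidase induced by TGF-beta, and INHBA, the activin subunit, read 8.23 against 6.86 and 6.58 and 11.27 against 10.27 and 10.11. TCF21, a transcription factor of lung mesenchyme, was higher by 1.47, PDGFD by 2.30, VEGFA by 1.10 and WNT16 by 1.67. The lists of HOX genes, matrix metalloproteinases, cholesterol synthesis, DNA methylation, Polycomb, p53 targets, contractile and germline genes had 0 members past 1 log2 in both arrays. Their medians were -0.24 to 0.20, and a count of 0 in lists of this size is near the share over all genes. The contractile gene ACTC1 had a mean difference of -1.025, with -0.94 as the smaller single difference.

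Among marker lists of other cell types, single genes passed 1 log2, to be read beside 1.46% higher and 0.512% lower among all genes. The endothelial receptor gene TEK, the 1 of 8 endothelial markers past that size, read 9.18 against 10.39 and 10.43. The list's median difference was 0.045. KRT18 read 10.16 against 11.50 and 11.42 and KRT19 9.11 against 7.93 and 7.93, so these epithelial keratins went opposite ways. Differences were negative for 7 of 11 epithelial markers, with a median of -0.11. PPARG, a regulator of fat cells, read 8.91 against 10.00 and 10.06. It was the 1 of 9 fat, cartilage and bone markers past 1 log2, while 7 of the 9 had negative differences and the median was -0.155.

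Cell cycle genes had small negative differences. Of 30 measured mitosis genes 29 were below 0, with a median difference of -0.46 and a largest difference of -0.88, and of 31 DNA replication genes 28 were below 0, with a median of -0.34. None of the 61 passed 1 log2 in both arrays, and in lists of this size that is near the share over all genes (1.46% higher and 0.512% lower). MKI67, a marker of cycling cells, read 10.74 in the TERT-low array and 10.28 and 10.13 in the pair. These differences move with those of the interferon and stress lists in this comparison, and their part in them was not tested. In the other arrays the mitosis list's median difference from the TERT-low array ran from -1.60 in A39 replicate 2 to 0.205 in A67 replicate 2. The cell cycle inhibitors had 0 of 14 members past 1 log2, which is also near the share over all genes. CDKN2A, which encodes p16, read 8.80 against 9.29 and 9.25, CDKN1A, which encodes p21, 10.75 against 11.16 and 11.11, and CDKN2B 9.54 against 9.46 and 9.51.

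TERT, by whose level the arrays were picked, was the 1 member of the 15 measured telomere genes that differed by 1 log2. Of all genes 1.46% were higher and 0.512% lower, so the absence of further members in a list of this size is near that share. The RNA template TERC read 7.57 against 8.05 and 8.17, and DKC1, GAR1 and NOP10, which assemble with it, differed by -0.52, -0.49 and 0.58. The shelterin genes TERF1, TERF2, TINF2, POT1 and ACD, whose proteins cover the telomere end, differed by -0.14 to 0.29.

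**Figure D4:**
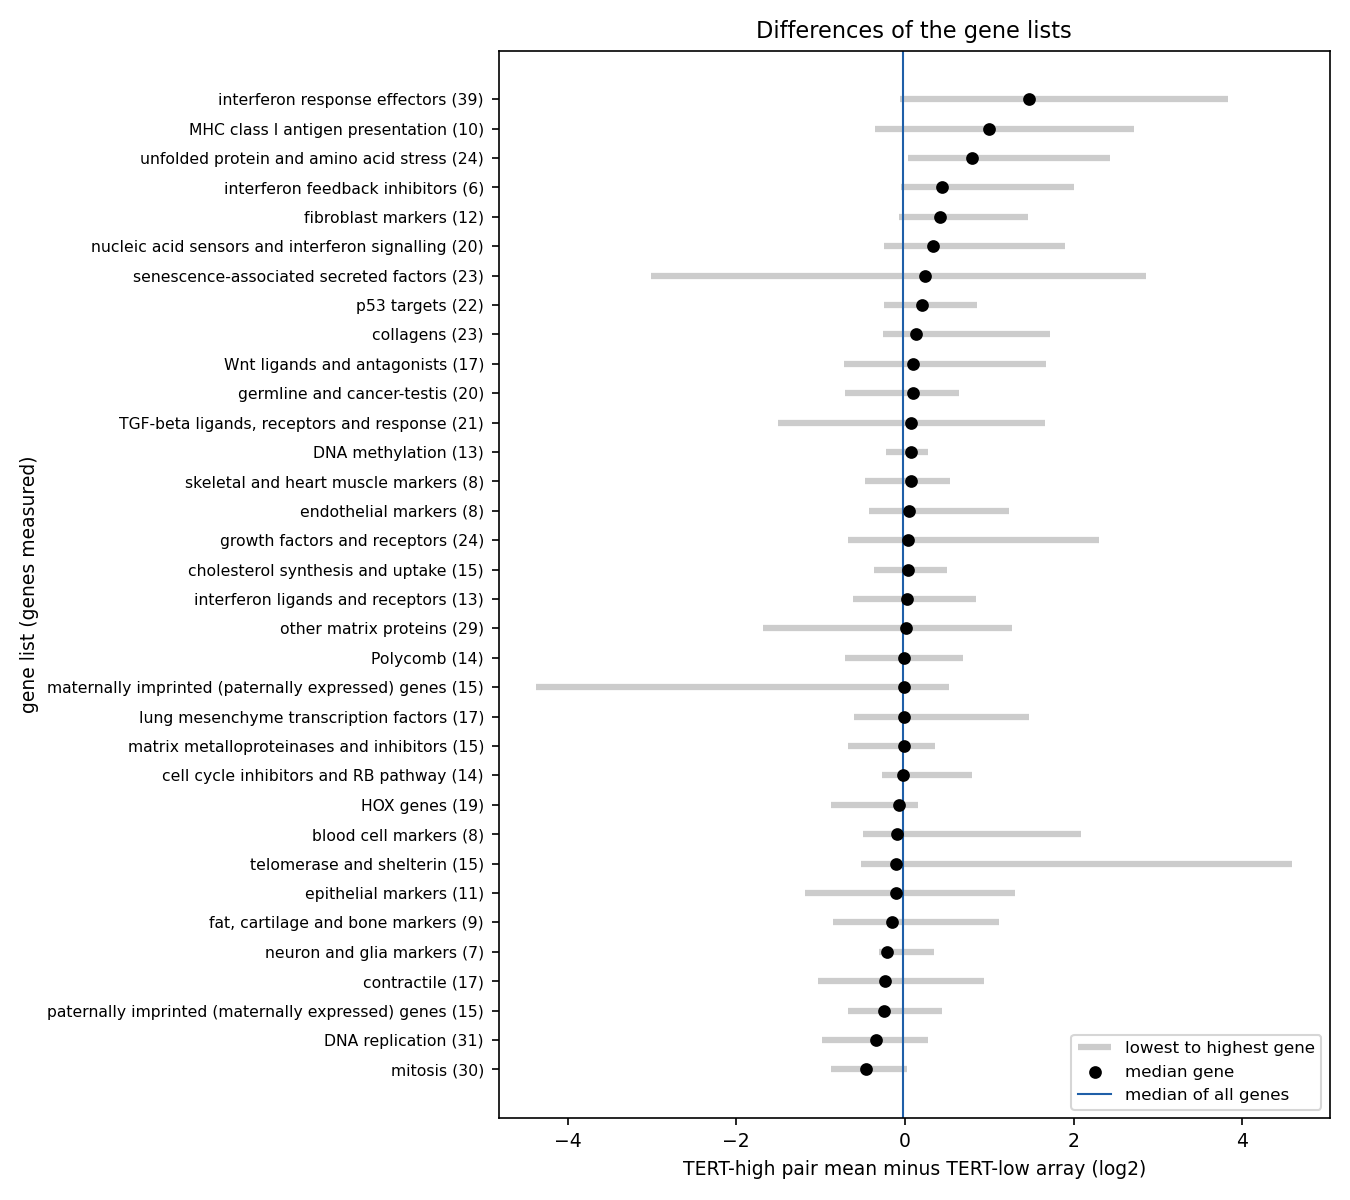
Difference between the mean of the TERT-high pair and the TERT-low array over each gene list, with the median gene as a point, the lowest to highest gene as a bar and the median of all genes (-0.025) as a line. Interferon response effectors (1.48), MHC class I genes (0.99) and stress genes (0.79) lie farthest to the right, and mitosis (-0.46) farthest to the left, while TERT and NDN each form the end of a bar whose list median is near that line.

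How far the 11 other arrays shared these differences was described gene by gene. A gene was taken as nearer the pair where an array lay past the midpoint between the TERT-low value and the pair's mean. Of the 268 genes that were higher, 248 were nearer the pair in A39 replicate 2 (92.5%), 167 in A50 replicate 2 (62.3%) and 84 in A95 replicate 1 (31.3%). Of the 94 that were lower, 84 were nearer the pair in A39 replicate 2 (89.4%), 66 in A95 replicate 1 (70.2%) and 57 in B96 replicate 1 (60.6%). All 11 other arrays were nearer the pair for 27 of the 268 genes and for 35 of the 94. The genes were chosen for their distance in the pair, so lower shares elsewhere are partly set by that choice.

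**Figure D5:**
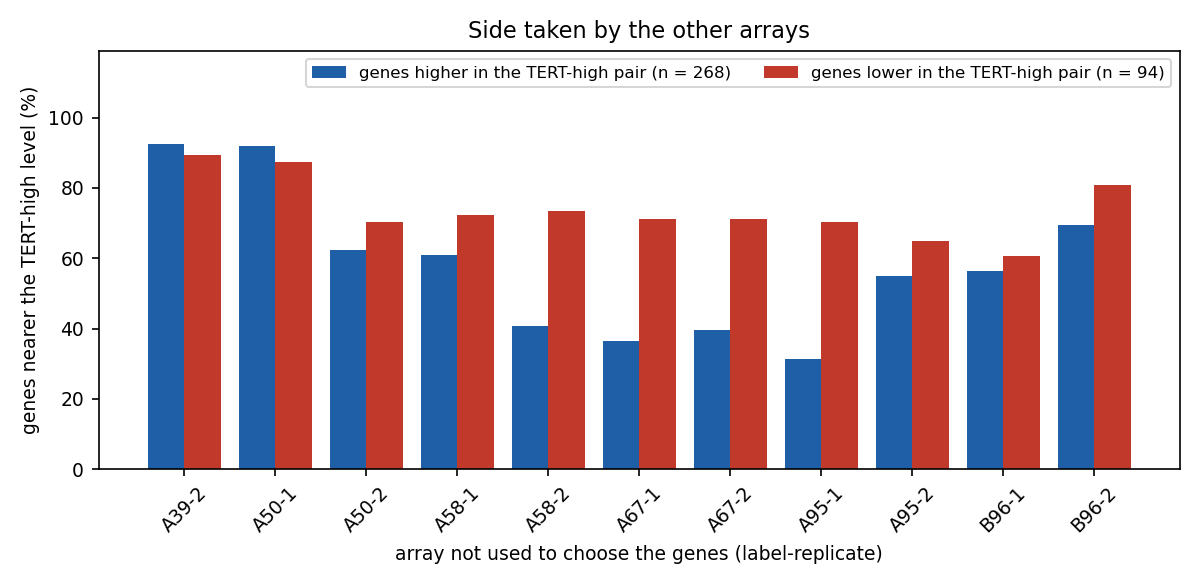
Share of the 268 higher genes and of the 94 lower genes, in percent, for which each of the 11 other arrays lay nearer the level of the TERT-high pair than that of the TERT-low array. For higher genes the share ran from 92.5% in A39 replicate 2 to 31.3% in A95 replicate 1, and for lower genes from 89.4% to 60.6%.

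Some genes set the TERT-low array apart from all 13 others. It was below all of them for 151 of the 268 higher genes and above all of them for 61 of the 94 lower genes, and it was so for 7.58% and 5.84% of all genes. The genes were chosen for lying at least 1 log2 from 2 of these 13 arrays, which largely sets the higher shares. The gap to the nearest array was at least 1 log2 for 13 genes below and 22 genes above. TERT had the largest gap, 3.60, but the array was picked by its TERT level. MASP1 (2.19) and PLAT (1.66) followed. PLAT, the tissue plasminogen activator, read 9.90 in the TERT-low array and 11.56 to 12.28 elsewhere. TNFRSF11B (1.56) and SCN3A (1.56), a sodium channel subunit, came next, and SCN3A read 5.51 in the TERT-low array, 7.88 and 7.75 in the pair, and up to 11.78 in the others.

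Above all others lay CCL2 with a gap of 2.34, SESN3 with 2.19, ADGRL2 with 2.06, HEPH with 1.90 and NRK with 1.72. SESN3, a sestrin of the stress and nutrient response, read 7.75 against 4.83 to 5.56 elsewhere. ADGRL2, an adhesion G protein-coupled receptor, read 8.82 against 5.32 to 6.76. HEPH, a copper-dependent ferroxidase, read 7.78 against 5.48 to 5.88, and NRK, a protein kinase, 7.60 against 5.12 to 5.88. CPE, a carboxypeptidase of hormone processing, read 8.11 against 5.95 and 5.70. ADAMTS6, a matrix protease, read 9.82 against 8.0 and 7.98, and 7.15 to 9.40 in the other arrays, so the TERT-low array was the highest by 0.42. For CCL2, SESN3, ADGRL2, HEPH, NRK and CPE the 11 other arrays were all nearer the pair than the TERT-low array.

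ESM1, HHIP and KCNK2 did not separate the TERT-low array in this way. ESM1, a secreted proteoglycan of endothelium, read 8.65 against 6.48 and 6.08, and the other arrays ran from 5.64 to 9.17. HHIP, an antagonist of hedgehog signalling, read 9.89 against 8.07 and 7.75, and 5.69 to 10.42 elsewhere. KCNK2, a potassium channel, read 10.05 against 8.24 and 8.13, and 7.48 to 10.12 elsewhere. For these 3 genes at least 1 other array lay above the TERT-low array.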

How the data were processed

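RNA of WI-38 cultures was hybridized to 14 Affymetrix human gene-level arrays, extracted in biological duplicate per the labels' protocols. The authors deposited log2 values for 28869 rows. The sources used here name no background correction, summarisation, normalization or genome build, and the log base was read from the range of the values. The number of arrays limits precision, and without a background signal it is unknown which low levels lie above background.

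Rows were named from the platform annotation and updated by gene ID through RefSeq (19279 of 19310 rows with 1 symbol; 1752 rows had several symbols and 7807 none). The row with the highest mean stood for its gene. The mean of the pair minus the TERT-low array was computed with Python 3.11.15 and pandas 2.3.3, with no filter and no test, and the counting was tested on simulated data. The members and all 34 gene lists were chosen with earlier results of these data known. Named were 7 fixed genes, the 15 largest differences each way by the smaller single difference, up to 4 members past 1 log2 per list, the 5 largest gaps each way, and the 5 closest patterns for TERT, IFI6 and NDN. Families and genes that missed the size were named after their values were seen. XIST and Y-linked genes were left out. Alternatives were quantile normalization, median centring, leaving out rows with means under the 30th percentile, each array of the pair alone, the median of the 11 other arrays, 2 log2, and a mean difference over 3 times that inside the pair. Running them on the stress, MHC class I, mitosis and DNA replication lists was decided after seeing the data.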

Additional observations from a re-analysis of the deposited data

How the results depend on the processing

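All 70 named genes kept their direction with quantile normalization, median centring and either array of the pair alone. So did the 58 that passed the filter on dim rows. Those that did not pass it were NDN, CCL2, FNBP1L, SESN3, ADGRL2, HEPH, NRK, CPE, ADH1B, ADH1C, NOX4 and PDGFD. Rows higher numbered 376 with quantile normalization, 454 with median centring and 406 with the ratio to the pair's difference. With 1 row per gene the counts were 268 higher and 94 lower, at 2 log2 they were 66 and 12, and the filter on dim rows left 90 lower rows. With a single array of the pair, 530 to 556 rows were higher and 294 to 305 lower. The interferon median was 1.42 to 1.54 with a single array and 1.64 with the filter, and DNA replication was -0.35 to -0.26 with a single array. Median centring gave 1.04 for MHC class I and -0.42 for mitosis. With the median of the 11 other arrays in place of the pair, 296 rows were lower, and the medians were 0.63 for interferon effectors, 0.28 for stress, 0.85 for MHC class I and -0.23 for DNA replication. There 63 of 70 named genes kept their direction, and 35 of the 66 at 1 log2 or more stayed there. MX1 came to 0.020, AMZ2P1 to 0.050 and PCDHB5 to 0.34. The 7 that changed sign were COL15A1 (-0.33), HGF (-0.47), IL6 (-0.34), ITGA8 (-0.15), PDGFD (-0.38), CDKN2A (-0.70) and CDKN2B (0.080). The cause was not tested. No paired analysis was possible because the results come from no test and 1 side holds 1 array.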
